A study of Mus musculus with 14 samples.

Results

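SCNT 2-cell embryos were compared with the cumulus cells that supplied their nuclei, across all genes. In somatic cell nuclear transfer (SCNT) the nucleus of a body cell is placed in an oocyte whose own nucleus has been removed. The comparison used 4 of the 14 mouse RNA-seq libraries of the study, chosen by their labels: 2 of SCNT 2-cell embryos (40 embryos pooled in each) and 2 of donor cumulus cells (about 1000 cells in each). Per the strain labels, the SCNT embryos combined donor nuclei of (C57BL/6J x CAST/EiJ) F1 cells with B6D2F1 recipient oocytes, and the donor cells were of that same F1. The protocol text gives BDF1 females as the origin of the cumulus cells, a conflict the sources used here do not settle. The cumulus cells came from superovulated adult females, 15 hours after the ovulation-inducing hormone, and were freed from the oocyte with hyaluronidase. For orientation, 3 other groups of 2 libraries were used: SCNT 1-cell embryos (36 embryos in each library, same strains), IVF 2-cell embryos (25 in each) and IVF 1-cell embryos (32 and 31), where IVF is in vitro fertilisation of C57BL/6J oocytes with CAST/EiJ sperm. SCNT 2-cell embryos labelled Kdm4d-OE and Kdm4dmut-OE (2 libraries each, 25 embryos in each library) entered the fit. Their levels are given only in a closing section. The question named for this comparison was how far the somatic programme is shut off and replaced.

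Cumulus cells are the somatic cells that surround the oocyte in the follicle. They are coupled to it by gap junctions, and after the ovulatory signal they lay down a hyaluronan-rich matrix, expand, and begin to make progesterone. The oocyte holds a store of RNA made during its growth, of which much is destroyed after fertilisation or activation. In the mouse the embryo's own genome is activated mainly at the 2-cell stage, so a 2-cell embryo holds leftover oocyte RNA beside newly made RNA. An SCNT 2-cell embryo thus holds oocyte RNA that its donor nucleus never made, and a difference from the donor cells joins this store, any carried-over donor RNA and new transcription.

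Levels are the FPKM values of the deposited table (fragments counted per length of transcript and per sequenced total), which can be compared between genes of different length. They are relative amounts within a library, so in these bulk samples fewer cells of a type and less RNA per cell cannot be told apart. Sums of FPKM were 186530 and 182181 in SCNT 2-cell libraries, against 268740 and 248158 in donor libraries, and 10562 and 10490 genes reached 1 FPKM in SCNT 2-cell libraries, against 9909 and 9991 in donor libraries. Depth relative to the deepest library of the study at 1, read from the spacing of low values, was 0.812 and 0.871 for SCNT 2-cell libraries and 0.590 and 0.586 for donor libraries. Of 13 cumulus and granulosa markers, summed levels were 71.9 and 67.4 FPKM in SCNT 2-cell embryos, against 26818 and 20426 FPKM in donor cells, and of 9 oocyte markers they were 2291 and 2233 FPKM in SCNT 2-cell embryos, against 5.33 and 6.68 FPKM in donor cells. The donor libraries differed from each other in markers of other cells: 17 immune markers summed to 269 and 139 FPKM, and 7 red blood cell markers to 34.2 and 1.39 FPKM. The red blood cell markers summed to 13.9 and 19.4 FPKM in SCNT 2-cell libraries, and to 2.26 and 2.95 FPKM in IVF 2-cell libraries.

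Most genes differed between the embryos and the cells their nuclei came from. Of 13446 genes tested, 5229 were higher in SCNT 2-cell embryos (38.9%) and 4591 were lower (34.1%), in limma's moderated test on log2(FPKM + 1) with Benjamini-Hochberg adjusted p under 0.05, and 3626 were not called. A difference beyond 2-fold was called for 2211 genes higher (16.4%) and 2108 lower (15.7%). The size of the balance rests on scaling: higher genes were 53.2% of the calls with FPKM as deposited and 63.8% when every library was given the same sum, with 6397 higher and 3627 lower and the median difference of all genes shifted by 0.33. The p-values measure only the spread between libraries of a group, with 1 variance per gene fitted over all 14 libraries in 7 groups. A fit to the 4 compared libraries alone called 5529 higher and 4736 lower. No label states whether a pair of libraries came from separate experiments. All log2 differences below are SCNT 2-cell minus donor cells on the log2(FPKM + 1) scale, with the standard error of the fit and 2 libraries per group unless another comparison is named, and they understate changes of genes near 0.

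With FPKM as deposited, the embryos had about as many abundant genes as the donor cells, but a different mix. The near-equal number rests on scaling, because the sums of FPKM were lower in SCNT 2-cell than in donor libraries. At least 10 FPKM was reached in both libraries by 3344 genes in SCNT 2-cell embryos and by 3331 in donor cells, and 1898 genes did so in all 4 libraries, 56.8% of the embryo genes and 57.0% of the donor genes. Among the 3331 donor genes, 187 (5.61%) were under 1 FPKM in both SCNT 2-cell libraries. Among the 3344 embryo genes, 324 (9.69%) were under 1 FPKM in both donor libraries. Of 372 genes with at least 100 FPKM in both donor libraries, 92 reached that level in both SCNT 2-cell libraries and 15 were under 1 FPKM there. The 100 most abundant genes made up 21.6% and 22.8% of the summed FPKM of SCNT 2-cell libraries, against 36.8% and 35.1% of that of donor libraries. Across tested genes, Spearman's rho between group means was 0.491 for SCNT 2-cell embryos and donor cells, 0.869 for SCNT and IVF 2-cell embryos and 0.701 for SCNT 2-cell and SCNT 1-cell embryos, as a description over genes.

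The 12 largest falls were led by the most abundant RNAs of the donor cells. Spp1, which encodes the secreted matrix protein osteopontin, lies at chr5:104864130-104870072 (mm9). It had 13.2 and 12.7 FPKM in SCNT 2-cell embryos, against 16696 and 12147 FPKM in donor cells, a log2 difference of -9.995 ± 0.43 (limma adjusted p = 1.95e-09). Akr1c18, a progesterone-metabolising enzyme, had 3.03 and 2.79 FPKM in SCNT 2-cell embryos, against 3658 and 3215 FPKM in donor cells (-9.78 ± 0.38). Spp1 and Akr1c18 were thus at 0.0899% and 0.0848% of their mean donor level, and the embryo and donor libraries lay far apart. Hsd3b1, an enzyme that makes progesterone, had 0.576 and 0.654 FPKM in SCNT 2-cell embryos, against 1652 and 1093 FPKM in donor cells. Cyp11a1, which makes its precursor pregnenolone, had 1.05 and 1.25 FPKM in SCNT 2-cell embryos, against 2238 and 1334 FPKM in donor cells. IVF 2-cell embryos, from which neither RNA was called different, had 0.788 and 1.98 FPKM of Hsd3b1 and 0.977 and 2.63 FPKM of Cyp11a1. Akr1cl, an aldo-keto reductase family member, had 10.7 and 10.4 FPKM in SCNT 2-cell embryos, against 6295 and 4236 FPKM in donor cells. The other 7 of the 12 were Mgst1, Anxa1, Nrn1, Sfrp2, Cav1, Fdx1 and Sdc4, with log2 differences between -8.58 (Mgst1) and -7.41 (Sdc4).

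The 12 largest rises were RNAs that oocytes also hold. Oog3, a PRAME-family gene expressed in oocytes, had 1268 and 1750.5 FPKM in SCNT 2-cell embryos, against 1.72 and 1.75 FPKM in donor cells, a log2 difference of 9.09 ± 0.23 (limma adjusted p = 5.6e-11). Its values are uncertain, because 18.7% of its 50-base stretches occur in other genes. Omt2b, an oocyte transcript, had 1387 and 1584 FPKM in SCNT 2-cell embryos, against 2.34 and 2.71 FPKM in donor cells. Its relative Omt2a had 1476 and 1890.0 FPKM in SCNT 2-cell embryos, against 2.95 and 1.85 FPKM in donor cells, and is uncertain with 29.5% of stretches shared. C86187, an oocyte transcript by its level in IVF 1-cell embryos (2574 and 2449 FPKM), had 931 and 1154 FPKM in SCNT 2-cell embryos, against 1.44 and 1.21 FPKM in donor cells. Dppa3, whose product protects DNA methylation in the zygote, had 1594 and 1424 FPKM in SCNT 2-cell embryos, against 3.55 and 4.29 FPKM in donor cells (8.26 ± 0.20), with 17.7% of stretches shared. Every one of the 12 was above 200 FPKM in both IVF 1-cell libraries, and at or below 4.29 FPKM in both donor libraries. The other 7 were Tcl1, Tcl1b1, Khdc1b, Btg4, Gm839, Oosp1 and AA545190.

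Promoter sequences of 5 of these genes are shown as examples of 2 short elements. They were picked after the matches were seen, and Omt2b, Tcl1, Btg4 and Mgst1, which also hold CAAGGNC, are not shown. The sequences are the 200 bases before the annotated start, from RefSeq on GRCm38.p6, all on the minus strand of their chromosome and written 5′ to 3′ along the gene. Capitals mark TATAAA, the core of a TATA box, searched on the same strand from 40 to 20 bases before the start, and CAAGGNC, an element of the kind bound by NR5A and oestrogen-related nuclear receptors, searched on both strands of the 200 bases. Oog3 (chr4:144162652-144162851), C86187 (chr7:46975912-46976111) and Anxa1 (chr19:20390672-20390871) hold TATAAA with its first base 29, 25 and 32 bases before the start. Akr1cl (chr1:65032760-65032959) holds CAAGGNC beginning 191 and 141 bases before the start, and Fdx1 (chr9:51963603-51963802) holds it on the opposite strand, from 124 to 118 bases before the start.
Oog3: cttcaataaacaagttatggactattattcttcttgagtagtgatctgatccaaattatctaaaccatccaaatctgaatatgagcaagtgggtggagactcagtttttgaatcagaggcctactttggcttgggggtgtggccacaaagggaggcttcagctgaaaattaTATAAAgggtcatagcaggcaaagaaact
C86187: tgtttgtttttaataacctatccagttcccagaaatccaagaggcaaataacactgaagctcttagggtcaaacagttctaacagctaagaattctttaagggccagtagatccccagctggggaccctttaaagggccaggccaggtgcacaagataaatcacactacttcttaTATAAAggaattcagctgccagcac
Anxa1: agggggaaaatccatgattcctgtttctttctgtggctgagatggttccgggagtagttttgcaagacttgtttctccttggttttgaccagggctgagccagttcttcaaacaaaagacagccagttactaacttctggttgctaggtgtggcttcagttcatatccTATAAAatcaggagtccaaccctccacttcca
Akr1cl: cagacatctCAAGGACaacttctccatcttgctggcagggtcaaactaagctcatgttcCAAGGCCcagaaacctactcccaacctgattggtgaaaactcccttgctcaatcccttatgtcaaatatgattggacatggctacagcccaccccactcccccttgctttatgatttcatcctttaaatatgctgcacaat
Fdx1: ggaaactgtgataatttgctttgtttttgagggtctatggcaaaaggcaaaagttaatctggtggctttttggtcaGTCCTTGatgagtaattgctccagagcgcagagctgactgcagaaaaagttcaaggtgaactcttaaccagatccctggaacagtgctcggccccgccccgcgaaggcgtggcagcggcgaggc
Among all 32851 promoters of that table, TATAAA in this position occurs in 1.99% and CAAGGNC in 12.1%. Of the 12 largest rises, 11 genes had a promoter in the table, of which 2 held TATAAA and 3 held CAAGGNC. Of the 12 largest falls, 11 genes were matched, of which 1 held TATAAA and 3 held CAAGGNC. These 11 genes have 15 promoters in the table, so counts of genes are not on the same footing as the percentages of promoters. Of the genes of steroid synthesis and gonadal identity described below, 24 were matched, with 31 promoters. CAAGGNC was held by 4 of these promoters (12.9%), close to the 12.1% of all promoters, and TATAAA by 1. These are matches of letters, described for genes chosen by their change or with earlier results known, and carry no test. Of 2 NR5A receptors, 1 was lower and 1 was not called: Nr5a1 had 0.0165 and 0.0154 FPKM in SCNT 2-cell embryos, against 6.42 and 6.76 FPKM in donor cells (-2.90 ± 0.11, limma adjusted p = 4.92e-10), and Nr5a2 had 12.6 and 10.7 FPKM in SCNT 2-cell embryos, against 10.04 and 14.5 FPKM in donor cells (-0.05 ± 0.29, adjusted p = 0.883, with a sign that turned to 0.40 under equal sums).

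To follow the somatic programme apart from the oocyte's store, genes were classed by donor cells and IVF 1-cell embryos, without use of the SCNT libraries. A donor-only gene had at least 10 FPKM in both donor libraries and under 1 FPKM in both IVF 1-cell libraries, an oocyte-only gene had these limits the other way round, a shared gene at least 10 FPKM in all 4, and a gene of neither under 1 FPKM in all 4. The IVF 1-cell embryos stand in for the recipient oocyte here, though their oocytes were C57BL/6J and not B6D2F1. The 623 donor-only genes made up 3.13% and 2.84% of the summed FPKM in SCNT 2-cell libraries, against 22.9% and 21.5% in donor libraries. In SCNT 1-cell libraries they made up 0.170% and 0.171%, and in IVF 2-cell libraries 2.60% and 2.48%. The share in SCNT 2-cell libraries lay between that of the donor cells and that of SCNT 1-cell embryos, close to that of IVF 2-cell embryos. The 559 oocyte-only genes made up 6.32% and 7.10% in SCNT 2-cell libraries, against 0.0406% and 0.0469% in donor libraries and 19.3% and 19.8% in SCNT 1-cell libraries. The 1596 genes shared by both sources made up nearly the same part in both: 42.3% and 42.4% in SCNT 2-cell libraries, against 41.6% and 42.6% in donor libraries. Within them 478 genes were higher, 700 lower and 418 not called, beside 38.9% higher and 34.1% lower of all genes tested. The 10211 genes of neither class made up 3.11% and 2.96% in SCNT 2-cell libraries, against 0.375% and 0.415% in donor libraries. With 2 libraries against 2, the smallest two-sided p of an exact permutation test of a single share is 0.333, so these shares are given by library without a test.

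**Figure D1:**
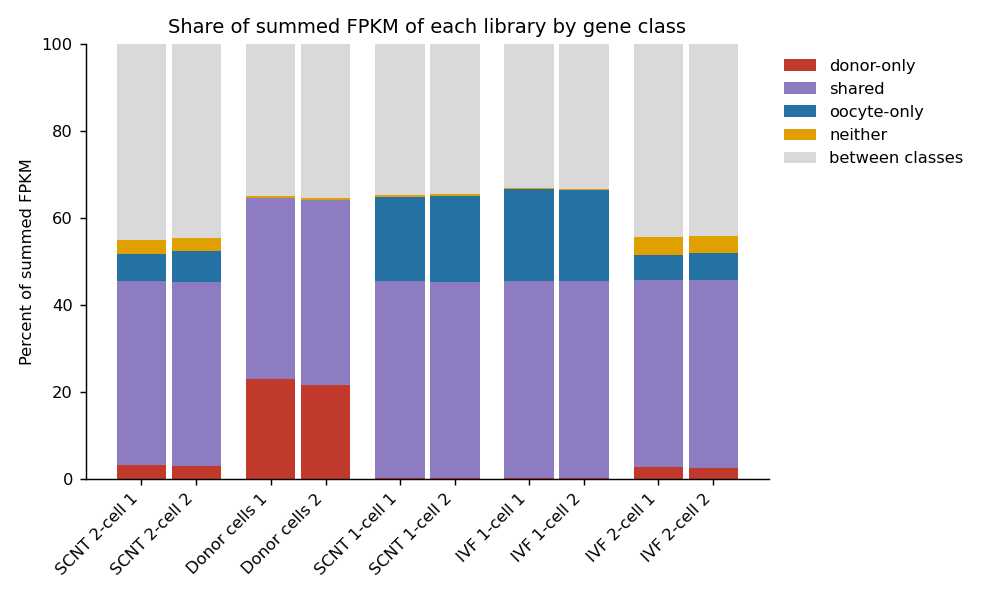
Percent of the summed FPKM of each library (vertical axis) that falls to donor-only, shared, oocyte-only, neither-class and remaining genes, for 2 libraries each of SCNT 2-cell embryos, donor cells, SCNT 1-cell, IVF 1-cell and IVF 2-cell embryos. Donor-only genes fill 22.9% and 21.5% of the donor bars but 3.13% and 2.84% of the SCNT 2-cell bars, while the shared part stays between 41.6% and 45.4% in every bar.

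The donor-only genes fell unevenly. Of the 623, 159 (25.5%) were under 1 FPKM in both SCNT 2-cell libraries, 424 were at 1 FPKM or more in both, 222 at 5 or more and 124 at 10 or more. The median gene stood at 10.9% of its donor level, 298 genes stood under 10% of it, 110 at 50% or more and 48 above it. In SCNT 1-cell embryos the median was 1.79% of the donor level and 423 of the genes were under 1 FPKM in both libraries. In IVF 2-cell embryos, which received no donor nucleus, the median was 3.07% and 304 were under 1 FPKM. Most donor-only genes were therefore lower in the 1-cell than in the 2-cell SCNT embryo: 419 of 623 (67.3%) were called higher in SCNT 2-cell than in SCNT 1-cell embryos and 16 lower, beside 35.4% and 31.5% of all genes tested. The class was chosen to be under 1 FPKM in IVF 1-cell embryos, and SCNT 1-cell levels were low too, which leaves little room to fall. Between SCNT 2-cell and IVF 2-cell embryos, 258 (41.4%) were higher and 64 (10.3%) lower, beside 30.2% and 16.5% of all genes tested. The size of this excess rests on scaling: 192 were higher and 73 lower with quantile normalization, 317 and 42 with equal sums. These alternatives were chosen after the data were seen. No share of all genes is given for them, so whether an excess over all genes remains under them cannot be read. Against the donor cells, whose level set the class, 533 were lower, 24 higher and 66 not called.

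**Figure D2:**
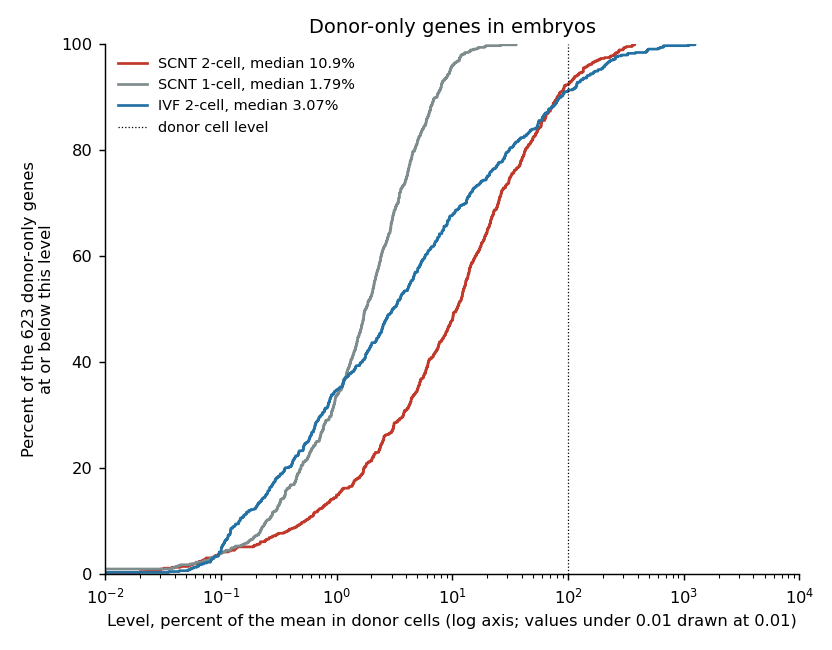
Cumulative percent of the 623 donor-only genes (vertical axis) at or below a given level in percent of the donor mean (horizontal axis, log scale), for SCNT 2-cell, SCNT 1-cell and IVF 2-cell embryos. The SCNT 2-cell curve has its median at 10.9%, to the right of SCNT 1-cell embryos at 1.79% and IVF 2-cell embryos at 3.07%, and the 2-cell curves meet near the donor level.

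Among donor-only genes, levels in the SCNT 2-cell embryo ranked more like those in fertilised 2-cell embryos than like those in donor cells. The choice of the class has a part in this. Across the 623 genes, Spearman's rho of the SCNT 2-cell level was 0.824 with the IVF 2-cell level, 0.553 with the SCNT 1-cell level and 0.0915 with the donor level, as a description. Every gene had passed the same floor in donor cells, which narrows the range of donor levels and can lower the rho with them. No floor was set in IVF 2-cell embryos. Over all tested genes the values were 0.869 with the IVF 2-cell and 0.491 with the donor level. A split by IVF 2-cell level was added after the data were seen. Of 304 donor-only genes under 1 FPKM in both IVF 2-cell libraries, 152 were also under 1 FPKM in both SCNT 2-cell libraries, 119 were at 1 FPKM or more in both and 18 at 5 FPKM or more. Of 148 at 5 FPKM or more in both IVF 2-cell libraries, 132 were so in both SCNT 2-cell libraries.

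The 8 donor-only genes most abundant in donor cells all fell. They were Spp1, Akr1c18, Hsd3b1 and Cyp11a1, already given, with Sdc4, Ephx2, Gja1 and Gm2a. Gja1, the gap junction protein connexin 43 that couples cumulus cells, had 35.9 and 34.2 FPKM in SCNT 2-cell embryos, against 2031 and 2056 FPKM in donor cells (-5.83 ± 0.20, limma adjusted p = 3.82e-10). Its SCNT 1-cell levels were 4.66 and 4.31 FPKM and its IVF 2-cell levels 63.9 and 53.9 FPKM. Gm2a, a cofactor of lysosomal ganglioside breakdown, had 64.8 and 46.5 FPKM in SCNT 2-cell embryos, against 2228 and 2218 FPKM in donor cells. Its IVF 2-cell levels were 140.2 and 135 FPKM. Both RNAs thus lay far below the donor cells, and both SCNT 2-cell libraries lay below both IVF 2-cell libraries. Ephx2, soluble epoxide hydrolase, had 8.40 and 7.87 FPKM in SCNT 2-cell embryos, against 1216 and 821 FPKM in donor cells, and 0.825 and 1.53 FPKM in IVF 2-cell embryos (SCNT minus IVF 2.09 ± 0.24, limma adjusted p = 4.45e-05).

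The 8 donor-only genes most abundant in SCNT 2-cell embryos were Ctsl, Nme2, H47, Gstm1, Cd63, Mak16, Fcgr3 and Nop16. Ctsl, the lysosomal protease cathepsin L, of a family in which 28.1% of its stretches are shared and its values thus uncertain, had 347 and 273 FPKM in SCNT 2-cell embryos, against 425 and 409 FPKM in donor cells, and was not called (-0.44 ± 0.23, limma adjusted p = 0.11). Its sign depends on scaling, with 0.43 under quantile normalization and 0.05 with equal sums. It had 7.32 and 6.18 FPKM in SCNT 1-cell and 333 and 291 FPKM in IVF 2-cell embryos, so that both kinds of 2-cell embryo were at a similar level. Nop16, a factor of ribosome assembly, had 71.9 and 62.3 FPKM in SCNT 2-cell embryos, against 37.7 and 32.4 FPKM in donor cells (0.92 ± 0.21, limma adjusted p = 0.00187), and 222 and 199 FPKM in IVF 2-cell embryos. Fcgr3, an immunoglobulin receptor known from immune cells, had 68.2 and 68.4 FPKM in SCNT 2-cell embryos, against 29.4 and 20.3 FPKM in donor cells, and 158 and 152 FPKM in IVF 2-cell embryos. Both were above the donor cells and below the fertilised embryos. Nme2 and Mak16 are uncertain, with 53.6% and 37.6% of stretches shared. Gstm1, a glutathione transferase at chr3:107815168-107820891 (mm9), stood apart from the other 7 in its IVF level. It had 131 and 106 FPKM in SCNT 2-cell embryos, against 29.8 and 32.7 FPKM in donor cells (1.88 ± 0.19, limma adjusted p = 2.7e-06). In SCNT 1-cell embryos it had 0.857 and 0.458 FPKM and in IVF 2-cell embryos 0.173 and 0.234 FPKM, a difference of 6.62 ± 0.19 between SCNT and IVF 2-cell embryos (adjusted p = 5.44e-09). For the other 7, the difference between SCNT and IVF 2-cell embryos lay between -1.64 (Nop16) and 0.17 (Cd63). As a member of a gene family, Gstm1 shares 23.4% of its stretches, so its values are uncertain.

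Genes of steroid synthesis stood far below their donor level. Of 33 tested genes of steroid synthesis and gonadal identity, 26 were lower in SCNT 2-cell embryos, 1 was higher (Esr2) and 6 were not called, with a median log2 difference of -2.90 beside 0.12 over all genes tested. Beside this count and the list counts below stand 34.1% lower and 38.9% higher of all genes tested. The list, like the others below, was chosen with earlier results of these data known, and 12 of its members are donor-only genes, low in the oocyte by choice. The 10 enzymes summed to 26.6 and 23.1 FPKM in SCNT 2-cell embryos, against 8301 and 6562 FPKM in donor cells. Fdx1, the ferredoxin that passes electrons to mitochondrial P450 enzymes, had 3.64 and 1.67 FPKM in SCNT 2-cell embryos, against 574 and 741 FPKM in donor cells. All 4 tested hormone subunits and binding proteins were lower. Among them, Inha, the alpha subunit of inhibin, had 0.108 and 0.0671 FPKM in SCNT 2-cell embryos, against 189.7 and 117 FPKM in donor cells. Inhba, the beta A subunit of inhibin and activin, had 0.444 and 0.223 FPKM in SCNT 2-cell embryos, against 119 and 185 FPKM in donor cells. Hormone receptors were counted apart, with 3 of 4 tested lower and 1 higher. Fshr, the receptor of follicle-stimulating hormone, had 0.0420 and 0.00980 FPKM in SCNT 2-cell embryos, against 9.02 and 7.34 FPKM in donor cells. No library of the embryos came near a donor library for these 3 genes. Of 9 tested transcription factors 7 were lower, and those not called were Nr5a2 and Gata4. Foxl2, which keeps the ovarian identity of granulosa cells, had 0.0879 and 0.0365 FPKM in SCNT 2-cell embryos, against 2.50 and 3.74 FPKM in donor cells (-1.94 ± 0.13). Esr2, an oestrogen receptor also held by the oocyte, had 6.15 and 7.07 FPKM in SCNT 2-cell embryos, against 3.45 and 3.71 FPKM in donor cells and 36.0 and 32.8 FPKM in IVF 1-cell embryos. Its higher call (0.73 ± 0.22, limma adjusted p = 0.0114) was lost without donor replicate 1 (0.0585) and without SCNT 2-cell replicate 2 (0.0697).

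Genes of cumulus expansion moved the same way. Of 19 tested, 17 were lower and 2 higher in SCNT 2-cell embryos (median -3.19), beside 34.1% lower and 38.9% higher of all genes tested. All 6 matrix genes fell: Tnfaip6, which links hyaluronan chains, had 3.37 and 3.27 FPKM in SCNT 2-cell embryos, against 181 and 225 FPKM in donor cells. Hapln1, another hyaluronan linker, was listed at 0 in both SCNT 2-cell libraries, against 2.72 and 2.01 FPKM in donor cells. Timp1, an inhibitor of matrix proteases, had 4.50 and 3.92 FPKM in SCNT 2-cell embryos, against 857 and 680.3 FPKM in donor cells (-7.20 ± 0.23, limma adjusted p = 2.13e-10). Donor levels of some members differed between the libraries: Adamts1, a protease of the expanding matrix, had 0.189 and 0.0452 FPKM in SCNT 2-cell embryos, against 18.8 and 66.0 FPKM in donor cells. The 2 that were higher were the receptor genes Bmpr2 and Egfr. Bmpr2, a receptor of bone morphogenetic proteins, had 20.2 and 18.3 FPKM in SCNT 2-cell embryos, against 10.8 and 12.8 FPKM in donor cells, and Egfr, the receptor of the factors that set off expansion, had 4.50 and 4.48 FPKM in SCNT 2-cell embryos, against 2.14 and 2.46 FPKM in donor cells. The call of Egfr (0.74 ± 0.27, limma adjusted p = 0.0266) was lost without any 1 of the 4 libraries (0.063 to 0.116).

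Genes that hold a somatic cell to its neighbours and give it shape were lower as well, beside 34.1% lower of all genes tested. Of 24 tested junction and matrix genes, 21 were lower, 1 higher and 2 not called (median -2.26), and of 31 genes of the actin and intermediate filament cytoskeleton, 28 were lower and 3 higher (median -3.26). Sparc, a collagen-binding matrix protein, had 9.05 and 7.88 FPKM in SCNT 2-cell embryos, against 390.0 and 393 FPKM in donor cells, and 0.980 and 0.752 FPKM in IVF 2-cell embryos. It was thus far below the donor level and above the fertilised embryo (SCNT minus IVF 2.34 ± 0.18, limma adjusted p = 3.2e-06). S100a6, a calcium-binding protein, had 8.54 and 10.4 FPKM in SCNT 2-cell embryos, against 771 and 881 FPKM in donor cells, and 1.01 and 1.35 FPKM in IVF 2-cell embryos (2.26 ± 0.26, adjusted p = 3.76e-05). Vim, the intermediate filament protein vimentin, had 2.41 and 3.51 FPKM in SCNT 2-cell embryos, against 153 and 312 FPKM in donor cells. The member higher among junction and matrix genes was Itga6, a laminin receptor subunit, at 12.4 and 14.6 FPKM in SCNT 2-cell embryos, against 1.24 and 2.91 FPKM in donor cells. The 3 cytoskeletal genes that were higher were Cnn1, Lmnb1 and Tagln, of which Tagln is uncertain with 47.7% of stretches shared. Lmnb1, a nuclear lamin, had 4.11 and 3.56 FPKM in SCNT 2-cell embryos, against 0.578 and 0.963 FPKM in donor cells.

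Immediate early genes, which somatic cells switch on within minutes of a signal, fell in 20 of 24 tested, with 3 higher and 1 not called (median -2.52). Of all genes tested, 34.1% were lower. Fos, a subunit of the AP-1 transcription factor, had 0.180 and 0.783 FPKM in SCNT 2-cell embryos, against 73.4 and 86.3 FPKM in donor cells. Ier3, an early response gene tied to cell survival, had 8.49 and 9.86 FPKM in SCNT 2-cell embryos, against 598 and 419 FPKM in donor cells. The 3 that were higher were Klf4, Gadd45b and Ier5. Klf4, a transcription factor of stem cells and epithelia, had 18.7 and 15.9 FPKM in SCNT 2-cell embryos, against 1.26 and 2.41 FPKM in donor cells, and 16.8 and 15.7 FPKM in IVF 2-cell embryos. Myc fell too, with 1.14 and 1.54 FPKM in SCNT 2-cell embryos, against 57.5 and 46.8 FPKM in donor cells.

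Antigen presentation, lysosome and glycolysis genes were lower in part, beside 34.1% lower and 38.9% higher of all genes tested. Of 18 antigen presentation genes 13 were lower and none higher (median -1.19). B2m, the light chain of class I molecules, had 109.7 and 88.6 FPKM in SCNT 2-cell embryos, against 854 and 709 FPKM in donor cells. Immune markers moved with this list: 17 of them summed to 44.9 and 35.9 FPKM in SCNT 2-cell embryos, against 269 and 139 FPKM in donor cells, and their part in it was not tested. Of 23 lysosome genes 15 were lower, 2 higher and 6 not called (median -1.34), and Cd81, a membrane tetraspanin, had 2.91 and 2.64 FPKM in SCNT 2-cell embryos, against 227 and 145 FPKM in donor cells. Of 19 glycolysis genes 15 were lower and 3 higher (median -1.95). The lactate dehydrogenase genes went opposite ways: Ldha had 13.5 and 13.4 FPKM in SCNT 2-cell embryos, against 275 and 229 FPKM in donor cells (-4.13 ± 0.21), and Ldhb had 80.5 and 69.3 FPKM in SCNT 2-cell embryos, against 29.7 and 22.3 FPKM in donor cells (1.501 ± 0.23). As family members, Ldha and Ldhb share 16.9% and 25.4% of their stretches and are uncertain. Slc2a3, a glucose carrier, and Slc16a1, a carrier of pyruvate and lactate, were the other members that were higher. Slc16a1 had 10.5 and 10.4 FPKM in SCNT 2-cell embryos, against 4.64 and 5.21 FPKM in donor cells.

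**Figure D3:**
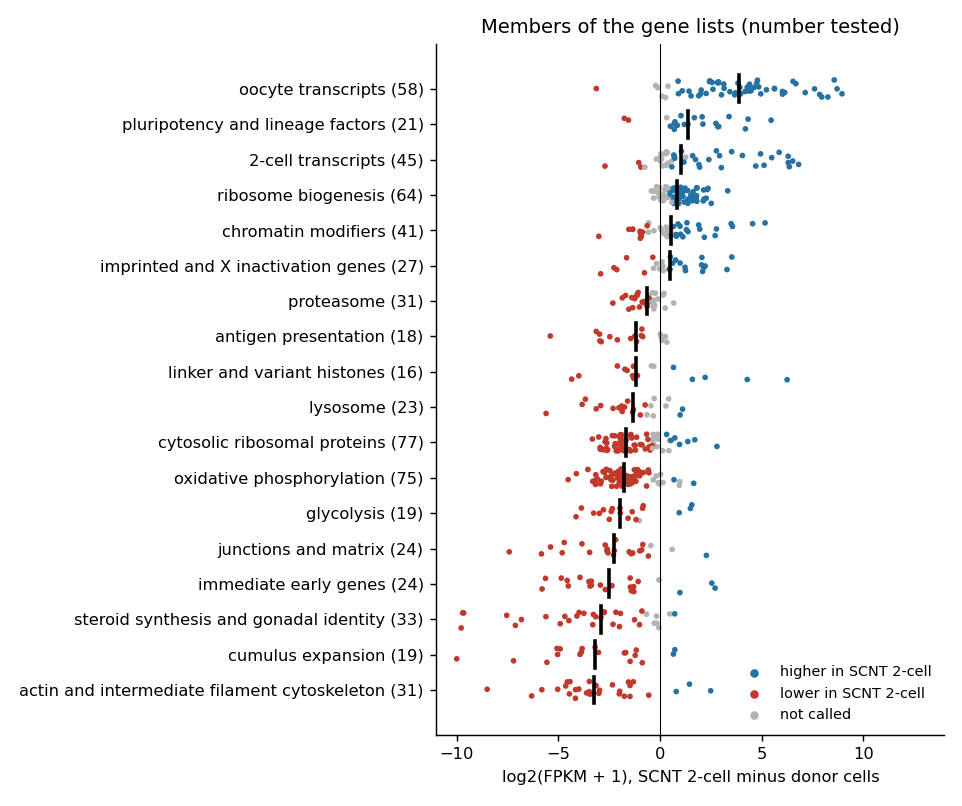
Difference of each tested member (points) and the median (black bar) of 18 gene lists on the log2(FPKM + 1) scale, SCNT 2-cell minus donor cells, with members called higher, called lower and not called in separate colours. Oocyte transcripts have the highest median, 3.89, and cytoskeleton genes the lowest, -3.26, with cytosolic ribosomal proteins at -1.66 and ribosome biogenesis genes at 0.85.

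Most listed transcripts of the oocyte were higher in the embryos than in the donor cells. Of 58 tested oocyte transcripts, 52 were higher in SCNT 2-cell embryos, 1 was lower and 5 were not called (median 3.89), beside 38.9% higher of all genes tested. They summed to 8065 and 9087 FPKM in SCNT 2-cell embryos, against 366 and 394 FPKM in donor cells and 45438 and 47526 FPKM in SCNT 1-cell embryos. Between SCNT 2-cell and SCNT 1-cell embryos, 52 of the 58 were lower, 2 higher and 4 not called (median -2.30), beside 31.5% lower of all genes tested. All 6 zona and secreted protein genes were higher; Bmp15, an oocyte growth factor that signals to cumulus cells, had 243 and 279 FPKM in SCNT 2-cell embryos, against 0.283 and 0.395 FPKM in donor cells. Zp3, a protein of the zona pellucida, had 32.1 and 28.0 FPKM in SCNT 2-cell embryos, against 0.0559 and 0.169 FPKM in donor cells. Of 12 tested chromatin and transcription genes 11 were higher, and Npm2, which unpacks chromatin in the zygote, had 71.8 and 83.2 FPKM in SCNT 2-cell embryos, against 0.824 and 0.356 FPKM in donor cells. The member that was lower was Rgs2, a regulator of G protein signalling, at 25.0 and 24.2 FPKM in SCNT 2-cell embryos, against 209 and 238 FPKM in donor cells and 389 and 415 FPKM in IVF 1-cell embryos. It was abundant in both sources of the embryo and lower than either.

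Genes that neither donor cells nor 1-cell embryos held were looked at apart. The 108 embryo-activated genes were under 1 FPKM in both donor and both IVF 1-cell libraries and at 10 FPKM or more in both IVF 2-cell libraries. They made up 0.975% and 0.890% of summed FPKM in SCNT 2-cell libraries, against 0.00569% and 0.00621% in donor libraries and 2.95% and 2.89% in IVF 2-cell libraries. In both SCNT 2-cell libraries 89 of them reached 1 FPKM, 64 reached 5 FPKM and 37 reached 10 FPKM, and 13 were under 1 FPKM in both. The median gene was at 24.9% of its IVF 2-cell level, which had set the class. Trim43a, of a tripartite motif family of the early embryo, had 162 and 152 FPKM in SCNT 2-cell embryos, against 0.363 and 0.423 FPKM in donor cells, with 48.5% of its stretches shared and its values therefore uncertain. Obox6, an early homeobox gene, had 128 and 137 FPKM in SCNT 2-cell embryos, against 0.303 and 0.582 FPKM in donor cells (6.53 ± 0.40, limma adjusted p = 3.07e-08), and 696 and 715 FPKM in IVF 2-cell embryos. Crxos1, another early homeobox gene, had 95.5 and 76.6 FPKM in SCNT 2-cell embryos, against 0.0823 and 0.0992 FPKM in donor cells, and 483 and 480.4 FPKM in IVF 2-cell embryos, and is uncertain with 17.3% of stretches shared. These genes were far above the donor cells and below the fertilised embryo. At the other end, 1700013H16Rik on the X chromosome had 0.0443 and 0.0207 FPKM in SCNT 2-cell embryos, against 0.122 and 0 FPKM in donor cells, and 135 and 154 FPKM in IVF 2-cell embryos. Eif2s3y, on the Y chromosome, was listed at 0 in all 4 SCNT 2-cell and donor libraries, against 15.1 and 11.6 FPKM in IVF 2-cell embryos; cumulus cells come from females, and IVF embryos can be of either sex.

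Of 45 tested 2-cell transcripts, 26 were higher in SCNT 2-cell embryos, 3 lower and 16 not called (median 1.06), beside 38.9% higher and 34.1% lower of all genes tested. In the table, 29 of the list's 50 genes share over 30% of their stretches, so most of these values are uncertain. The 3 that were lower were Hspa8, Eif1a and Ddit4l, and with equal sums only Hspa8, which is uncertain with 52.4% of stretches shared, kept the call. Eif1a, a translation initiation factor, had 21.1 and 25.6 FPKM in SCNT 2-cell embryos, against 51.1 and 46.7 FPKM in donor cells, a difference of -1.04 ± 0.35 whose call (limma adjusted p = 0.0172) was lost with equal sums (0.132) and without 3 of the 4 libraries in turn (0.0527 to 0.0958). Of 21 tested pluripotency and lineage factors, 18 were higher and 2 lower (median 1.38). Fgf4, a growth factor of the early embryo, had 24.0 and 16.1 FPKM in SCNT 2-cell embryos, against 0.0110 and 0.0333 FPKM in donor cells, and 26.6 and 20.9 FPKM in IVF 2-cell embryos. Pou5f1, which encodes OCT4, had 7.09 and 4.97 FPKM in SCNT 2-cell embryos, against 0.0271 and 0.0273 FPKM in donor cells (2.76 ± 0.30, limma adjusted p = 4.82e-06), and is uncertain with 15.9% of stretches shared. Krt8 and Krt18, keratins that pair in simple epithelia, were the 2 that were lower. Krt18 had 6.78 and 5.69 FPKM in SCNT 2-cell embryos, against 28.7 and 18.8 FPKM in donor cells.

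Housekeeping machines did not move as one, read beside 38.9% higher and 34.1% lower of all genes tested. Cytosolic ribosomal protein genes were lower in 59 of 77 tested, with 7 higher and 11 not called (median -1.66), and ribosome biogenesis genes were higher in 45 of 64, with none lower and 19 not called (median 0.85). Of the ribosomal protein genes, 47 share over 30% of their stretches, so their single values are uncertain. Rps14, a small subunit protein with 0% of stretches shared, had 144 and 124 FPKM in SCNT 2-cell embryos, against 1131 and 1042 FPKM in donor cells (-3.01 ± 0.18, limma adjusted p = 2.43e-08). Lyar, a nucleolar protein, had 88.1 and 72.3 FPKM in SCNT 2-cell embryos, against 5.69 and 8.57 FPKM in donor cells (3.34 ± 0.20, adjusted p = 2.91e-08). Oxidative phosphorylation genes were lower in 64 of 75, with 2 higher and 9 not called (median -1.76). Ndufa8, a subunit of complex I, had 4.81 and 5.52 FPKM in SCNT 2-cell embryos, against 145 and 134 FPKM in donor cells and 51.0 and 49.6 FPKM in IVF 1-cell embryos. Atp5g1, a subunit of the ATP synthase ring, was higher, at 17.3 and 13.9 FPKM in SCNT 2-cell embryos, against 4.40 and 4.02 FPKM in donor cells. Proteasome subunits were lower in 18 of 31 and not called in 13 (median -0.63), which depends on scaling: with equal sums 9 were lower and 4 higher, with a median of -0.16.

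Chromatin genes were higher in 20 of 41 tested, lower in 10 and not called in 11 (median 0.55). Beside these and the smaller groups below stand 38.9% higher and 34.1% lower of all genes tested. Of 9 Polycomb genes, 7 were higher and 2, Ezh1 and Ring1, lower. Bmi1, of Polycomb repressive complex 1, had 225 and 217 FPKM in SCNT 2-cell embryos, against 5.02 and 5.29 FPKM in donor cells, and 160.3 and 164 FPKM in IVF 1-cell embryos. Suz12, of Polycomb repressive complex 2, had 218 and 216 FPKM in SCNT 2-cell embryos, against 16.5 and 18.2 FPKM in donor cells, and 203 and 207 FPKM in IVF 1-cell embryos. Both RNAs were thus abundant in the 1-cell embryo too. Of 8 tested histone deacetylases 2 were higher and 4 lower, with Hdac3 at 0.653 and 1.07 FPKM in SCNT 2-cell embryos, against 14.4 and 13.3 FPKM in donor cells. Dnmt3l, a cofactor of DNA methylation in germ cells, had 26.7 and 24.7 FPKM in SCNT 2-cell embryos, against 0.106 and 0.150 FPKM in donor cells, and 5.78 and 5.54 FPKM in IVF 2-cell embryos. Of 9 H3K9 methyltransferases and readers 3 were higher (33.3%, close to the share of all genes), 2 lower and 4 not called. Suv39h2, an H3K9 methyltransferase, had 15.7 and 18.4 FPKM in SCNT 2-cell embryos, against 0.475 and 0.706 FPKM in donor cells (3.51 ± 0.16). Among 16 linker and variant histones 5 were higher (31.25%) and 9 lower (56.25%). H1foo, the linker histone of the oocyte, had 25.0 and 20.4 FPKM in SCNT 2-cell embryos, against 0.0684 and 0.345 FPKM in donor cells. Hist1h1c, a somatic linker histone, had 0.716 and 1.15 FPKM in SCNT 2-cell embryos, against 29.8 and 48.1 FPKM in donor cells. The order of the 2 linker histones was thus opposite in embryos and donor cells. H2afy, macroH2A, which is enriched on the inactive X chromosome, fell, with 4.44 and 5.08 FPKM in SCNT 2-cell embryos, against 85.3 and 95.4 FPKM in donor cells.

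Imprinted genes and genes of X inactivation moved in both directions. Imprinted genes are read from 1 parental copy, and Xist coats the inactive X chromosome. Of 27 tested genes of this list 15 were higher (55.6%), 6 lower (22.2%) and 6 not called (median 0.50). Of all genes tested, 38.9% were higher and 34.1% lower. Of the 3 tested X inactivation genes, 1 was higher, 1 lower and 1 not called, but with equal sums 2 were higher and none lower. Xist and its antisense partner Tsix overlap, and no source used here says that the counting used strand, so their reads cannot be told apart. The values listed for Xist were 4.98 and 4.59 FPKM in SCNT 2-cell embryos, against 7.58 and 10.1 FPKM in donor cells. Its lower call (-0.76 ± 0.21, limma adjusted p = 0.00554) was lost with equal sums (adjusted p = 0.214), without donor replicate 2 (0.0607) and with a pseudocount of 0.1 (0.0585). The values listed for Tsix were 9.002 and 6.47 FPKM in SCNT 2-cell embryos, against 8.21 and 5.45 FPKM in donor cells, not called. Sfmbt2, a paternally expressed Polycomb-like gene, had 21.4 and 17.8 FPKM in SCNT 2-cell embryos, against 0.852 and 1.34 FPKM in donor cells, and 1.70 and 2.08 FPKM in IVF 2-cell embryos (SCNT minus IVF 2.83 ± 0.33, adjusted p = 4.37e-05). Impact, a paternally expressed regulator of translation, had 321 and 219.8 FPKM in SCNT 2-cell embryos, against 56.4 and 55.5 FPKM in donor cells, and 5.76 and 5.36 FPKM in IVF 2-cell embryos. Both were above donor cells and far above fertilised embryos. Gnas, a G protein subunit with several imprinted transcripts, had 21.0 and 25.4 FPKM in SCNT 2-cell embryos, against 160.3 and 203 FPKM in donor cells (-2.91 ± 0.24).

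Pairs of related genes were also compared, in which 1 member was listed as the germline or embryo gene and the other as its somatic relative. In 20 such pairs the germline or embryo member was higher in SCNT 2-cell embryos in 19, and was not called for Tet3. Its relative was higher in 7, lower in 8 and not called in 5, near the shares of all genes tested (38.9% higher, 34.1% lower). Both members thus rose in 7 pairs and they parted in 7. The ratio of the germline or embryo member to its relative moved up in 18 pairs, yet that member was the more abundant in 8 pairs in SCNT 2-cell embryos, against 1 pair in donor cells, and in 13 pairs in SCNT 1-cell embryos. Btg4, which brings maternal RNA to the CCR4-NOT deadenylase, had 349 and 428 FPKM in SCNT 2-cell embryos, against 0.591 and 0.510 FPKM in donor cells, while its relative Btg2 had 15.95 and 13.4 FPKM in SCNT 2-cell embryos, against 178 and 171 FPKM in donor cells. The order within the pair was thus opposite in embryos and donor cells, as it was for H1foo and Hist1h1c. Pabpc1l, a poly(A)-binding protein of the oocyte, had 1.83 and 1.32 FPKM in SCNT 2-cell embryos, against 0.217 and 0.234 FPKM in donor cells, beside 22.3 and 19.8 FPKM of its relative Pabpc1 in SCNT 2-cell embryos, against 83.4 and 87.9 FPKM in donor cells. There both moved toward each other and the somatic member stayed the more abundant. Wee2 and Wee1, inhibitory kinases of Cdk1, both rose, with Wee2 at 92.7 and 117 FPKM in SCNT 2-cell embryos, against 0.105 and 0.140 FPKM in donor cells. Rpl39l, a variant ribosomal protein, had 2.37 and 2.21 FPKM in SCNT 2-cell embryos, against 0 and 0.156 FPKM in donor cells, and 162 and 161 FPKM in IVF 2-cell embryos (SCNT minus IVF -5.63 ± 0.31, limma adjusted p = 4.22e-07). Rec8, a cohesin subunit of meiosis, had 2.49 and 3.38 FPKM in SCNT 2-cell embryos, against 0.0168 and 0.0170 FPKM in donor cells, and 0.0638 and 0.113 FPKM in IVF 2-cell embryos. Values of Kpna2 and Rpl10 in these pairs are uncertain, with 92.5% and 58.4% of their stretches shared.

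**Figure D4:**
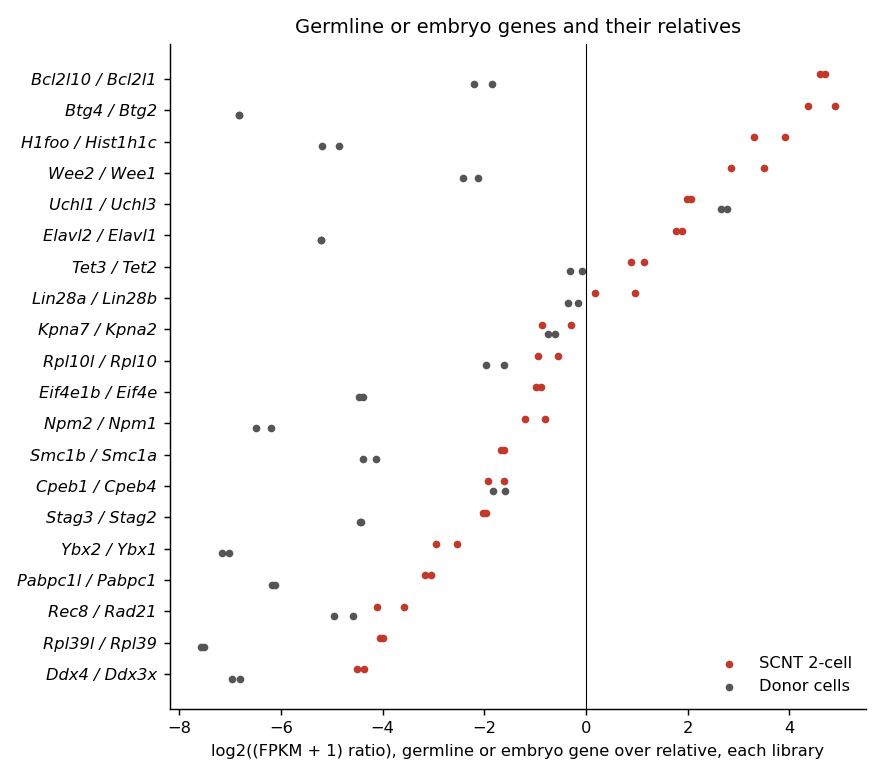
Log2 ratio of FPKM + 1 of the germline or embryo member to its relative (horizontal axis) for 20 pairs, with 1 point for each of 2 SCNT 2-cell libraries and 2 donor libraries. Points right of 0 mean that the germline or embryo member is the more abundant, which holds for 8 pairs in SCNT 2-cell embryos and for 1, Uchl1 and Uchl3, in donor cells.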

How the data were processed

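Pooled embryos and cells were profiled by low-input cDNA amplification and single-end 50-base sequencing, per the labels' protocols. The table deposited by the authors holds FPKM for 23697 rows in 14 libraries of 7 groups of 2. Per the submitters' processing notes it was made with Novoalign and Cufflinks 2.0.2 on mm9, while neither the annotation nor the handling of multiply mapped reads is stated there. Coordinates are mm9, with 1 added to starts that count from 0. FPKM gives no counts, so no interval for counting error is given.

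From it, 815 rows of short RNAs were left out, 630 rows that share a symbol were summed, and 22482 symbols remained, of which 13446 had at least 1 FPKM in at least 2 libraries. All 7 groups were fitted on log2(FPKM + 1) with limma 3.58.1 in R 4.3.3 (trend and robust moderation, 7 residual degrees of freedom, Benjamini-Hochberg threshold 0.05), and differences beyond 2-fold with its treat test. The scripts were tested on simulated data. Shared stretches are 50-base stretches found in transcripts of other genes of GENCODE M21: values are called uncertain above 30%, or 15% in gene families. The alternatives were another pseudocount (0.1), other low-value filters, quantile and equal-sum scaling, a fit to the 4 libraries, group weights, the replicate number as a block, other class limits, and each library left out.

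The members and lists were chosen with earlier results of these data known. The rule for naming genes took the 12 largest rises and falls whose mean reached 5 FPKM in either group and whose libraries did not overlap, up to 3 members per list and direction, the 8 donor-only genes most abundant in donor cells and the 8 in SCNT 2-cell embryos, the most and the least abundant embryo-activated genes, and the pairs. The text gives a selection. Nr5a1, Nr5a2, Gata4, Inha, Inhba, Fshr, Foxl2, Hapln1, Adamts1, Myc, Bmp15, Zp3, Pou5f1, Ring1, Suv39h2, Xist and Tsix were named outside it, after their values were seen, as were the motifs and the promoters shown.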

Additional observations from a re-analysis of the deposited data

Results flagged for a closer look

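Libraries of SCNT 2-cell embryos labelled Kdm4d-OE entered the fit and no comparison above. Both had higher shares of 3 gene classes than both libraries labelled Kdm4dmut-OE, and the difference was not tested. The embryo-activated genes are all part of the neither class, so these are not 3 separate results. Oocyte-only genes went the other way, at 7.79% and 5.50% in Kdm4d-OE libraries, against 12.6% and 8.67% in Kdm4dmut-OE libraries. So did shared genes, at 41.5% and 43.0% against 44.6% and 43.4%. Embryo-activated genes made up 1.84% and 2.63% of summed FPKM in Kdm4d-OE libraries (mean 2.24%), against 0.383% and 0.826% in Kdm4dmut-OE libraries. Genes of neither class made up 5.99% and 4.55% in Kdm4d-OE libraries (mean 5.27%), against 1.76% and 2.69% in Kdm4dmut-OE libraries. Donor-only genes made up 2.46% and 3.15% in Kdm4d-OE libraries (mean 2.80%), against 1.52% and 2.44% in Kdm4dmut-OE libraries. The nearest of these shares, 2.46% and 2.44%, hardly differed. The median donor-only gene went the other way, at 6.65% of its donor level in Kdm4d-OE and 9.28% in Kdm4dmut-OE embryos. Under 1 FPKM in both libraries were 224 donor-only genes in Kdm4d-OE and 145 in Kdm4dmut-OE embryos, while 117 and 97 reached 10 FPKM in both.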

How the results depend on the processing

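Of 2270 values computed for the named genes under the alternatives, 2200 kept their direction and side of the threshold, 40 lost the call, 16 gained one and 14 changed sign; of 340 values of other results, 318 stayed the same. The sign changes were Ctsl, with 0.43 under quantile normalization and 0.047 with equal sums (-0.44 as reported), and Rpl10 (0.0062), Smc1a (0.36), Stag2 (0.15), Gata4 (0.26) and Nr5a2 (0.40) with equal sums. With each library left out, Hba-a2 ranged between -0.81 (without donor replicate 2) and 3.29, 1700013H16Rik between -0.12 and 0.046 (without donor replicate 1), Gata4 between -0.41 and 0.078, Nr5a2 between -0.30 and 0.19 and Tsix between -0.091 and 0.42. The cause was not tested. With a pseudocount of 0.1, 3466 genes were higher beyond 2-fold, against 2211. With equal sums 9 proteasome genes were lower, 42 donor-only genes were lower than in IVF 2-cell embryos (64 as reported, an alternative chosen after seeing the data), the median donor-only gene stood at 16.9% of its donor level and the median embryo-activated gene at 32.5% of its IVF 2-cell level, with 58 such genes at 10 FPKM or more. With class limits of 5 and 0.5 FPKM, the mean shares in SCNT 2-cell libraries were 2.33% donor-only, 5.69% oocyte-only, 57.2% shared and 2.16% neither, and 285 donor-only genes were under 1 FPKM. With limits of 20 and 1 FPKM there were 319 donor-only genes, 74 of them under 1 FPKM and 131 at 5 FPKM or more, with a median of 6.97%. Embryo-activated genes numbered 178 at 5 FPKM or more in IVF 2-cell embryos, 140 of them at 1 FPKM or more in SCNT 2-cell embryos, with a median of 28.4%. With each library left out in turn, 4 to 8 immune markers (8 without donor replicate 2) were lower, 1 to 2 endothelial markers higher (3 as reported, 1 without SCNT 2-cell replicate 1), the median donor-only gene stood at 10.04% to 11.6% of its donor level, 4609 to 4737 genes were higher and 4144 to 4243 lower. No paired reading of the replicate numbers is stated, and same-numbered libraries did not deviate together (correlation 0.000637). With the replicate number as a block 5189 genes were higher and 4573 lower. Lower depth of the donor libraries limits values under 1 FPKM there.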

Other observations

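Epithelial and sperm markers, included as signs of other cells, gave values outside the comparisons above. Cdh1, the adhesion protein E-cadherin, had 5.05 and 4.20 FPKM in SCNT 2-cell embryos, against 0.0518 and 0.104 FPKM in donor cells, and 7.49 and 7.47 FPKM in IVF 1-cell embryos. Epcam, another epithelial adhesion protein, had 59.9 and 54.1 FPKM in SCNT 2-cell embryos, against 0.185 and 0.237 FPKM in donor cells, and 60.3 and 69.4 FPKM in IVF 2-cell embryos. Ldhc, the lactate dehydrogenase of sperm, had 13.9 and 15.6 FPKM in SCNT 2-cell embryos, against 0.0281 and 0.0284 FPKM in donor cells, and 2.53 and 1.61 FPKM in IVF 1-cell embryos. Of the 9 sperm markers, 3 were tested and 2 of them, Ldhc and Prm2, were higher in SCNT 2-cell embryos, beside 38.9% of all genes tested.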
